A study of Mus musculus with 6 samples.

Results

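The pyruvate dehydrogenase genes described here are the 4 kinases Pdk1, Pdk2, Pdk3 and Pdk4, the phosphatases Pdp1 and Pdp2, and the complex subunits Pdha1, Pdhb, Dlat and Dld. All probe sets whose platform gene symbol is one of these names were taken, which gave 19 of 45037 probe sets and 10 of 18193 genes. Liver RNA came from NZO mice and BKS mice (C57BL/KS), with 3 samples of each strain. The titles of the BKS samples mark them as wild type (wt). All mice were male, 18 weeks old, on standard chow and without any treatment. NZO is the strain that becomes obese and diabetic on this diet. The 2 strains differ in their whole genetic background, and no label states that the arrays come from separate animals, so p-values measure the spread between these samples, which may be technical. One array was run per sample, and values are log2 expression per probe set, where a difference of 1 is a factor of 2.

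The pyruvate dehydrogenase complex sits in the mitochondrial matrix and turns pyruvate into acetyl-CoA, which commits carbon from glucose to oxidation or to lipid synthesis. Kinases switch the complex off by phosphorylating its alpha chain, and phosphatases switch it on again. In liver, fasting and fatty acids raise the kinase PDK4, and insulin lowers it, so that pyruvate is kept for glucose production.

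The arrays did not behave alike. NZO replicate 1 and BKS replicate 1, the arrays titled number 1 in each strain, had the lowest hybridization controls (8.17 and 9.29, against 10.2 to 11.5 on the other 4). On NZO replicate 1 the 3192 genes with a mean of at least 9 had a median level of 9.47, against 10.2 to 10.5 on the other 5 arrays, and 87.1% of these genes were at their lowest there. The beta-actin probe sets at the 3' and 5' ends, whose gap widens as RNA breaks down, differed by 1.29 to 1.39 in NZO and 1.72 to 2.33 in BKS. The 18S ribosomal RNA controls were at 10.5 on BKS replicate 2 and 7.91 on BKS replicate 3, against 4.51 to 5.52 on the other 4 arrays. BKS replicates 2 and 3 are the BKS arrays not titled number 1, so setting the number 1 arrays aside leaves this difference between the strains. The hepatocyte markers lay far above the array medians of 5.08 to 5.22. Over 10 measured markers the mean level was 12.2 to 13.3 on the NZO arrays and 12.9 to 13.0 on the BKS arrays. Ass1 was the exception, with a mean of 6.33 in NZO and 5.25 in BKS.

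Of the 10 genes, Pdk4 was higher in NZO and passed the test, no gene was lower and 9 did not pass (limma over all 18193 genes, Benjamini-Hochberg adjusted p below 0.05). Over all genes 0.742% passed, and 0.324% passed as higher in NZO. The median log2 fold change of the 10 genes was -0.10, and that of all genes was -0.03. Among the 2 against 2 arrays not titled number 1, the medians were -0.02 and 0.0037. In 2 of the 10 genes, Pdk4 and Pdk1, the values of the strains did not overlap, as was the case for 17.0% of all genes.

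**Figure D1:**
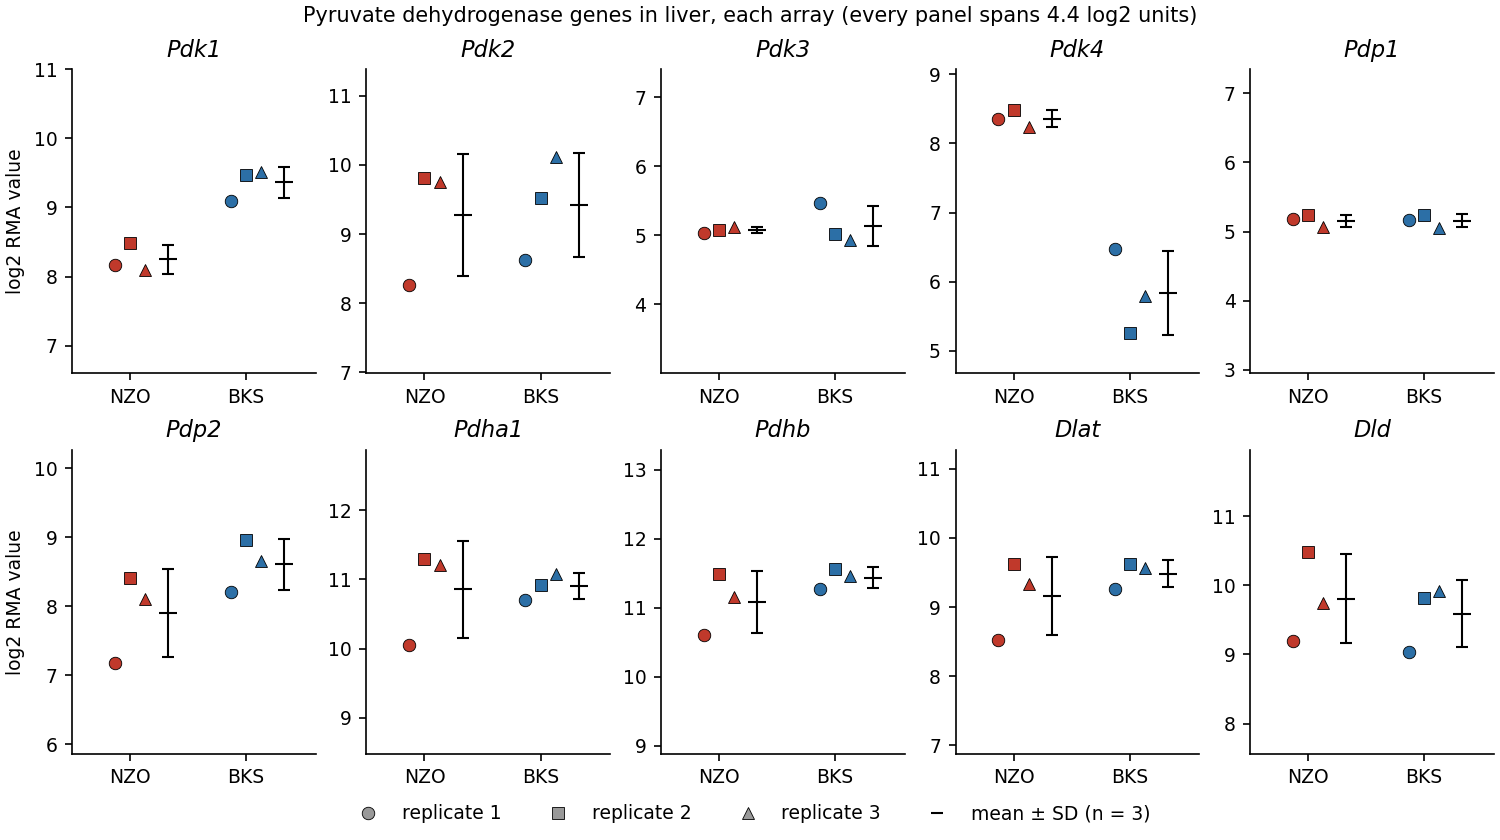
Log2 RMA value (vertical axis) of the brightest probe set of each of the 10 genes on each array, NZO in red left of BKS in blue; symbols mark the replicate and black bars the mean ± SD (n = 3). Pdk4 lies higher on all 3 NZO arrays and Pdk1 lower, while NZO replicate 1 is the lowest array for Pdk2, Pdp2, Pdha1, Pdhb and Dlat.

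Pdk4 encodes the kinase isoform that answers to fasting. Its probe set, 1417273_at, was at 8.36, 8.49 and 8.23 in NZO, against 6.47, 5.26 and 5.78 in BKS. The 3 NZO values lay close together and above every BKS value. The means were 8.36 ± 0.13 in NZO and 5.84 ± 0.60 in BKS (SD, n = 3 each). The log2 fold change was 2.52 (SE 0.30, adjusted p = 0.0159), or 5.75-fold with a 95% interval of 3.56 to 9.29. In all, 17 genes had a higher log2 fold change. The difference was 1.89 between the arrays titled number 1 and 2.84 among the other 2 against 2 arrays (adjusted p = 0.000717). The BKS values lay near the array medians, so the size of the fold depends on a low value. The call ended when BKS replicate 2 (adjusted p = 0.0619), BKS replicate 3 (0.108), NZO replicate 2 (0.0625) or NZO replicate 3 (0.0981) was left out, at log2 fold changes of 2.23 to 2.59.

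Pdk1 encodes the kinase isoform known as a target of the hypoxia-inducible factor. Its brightest probe set, 1423748_at, was at 8.16, 8.49 and 8.09 in NZO, against 9.10, 9.48 and 9.51 in BKS. Every NZO value was thus below every BKS value. The log2 fold change was -1.11 (SE 0.19), and it did not pass (adjusted p = 0.0578). With the arrays titled number 1 as a block it passed (adjusted p = 0.00731), where 6.55% of all genes did, and so it did among the 2 against 2 arrays (-1.20, adjusted p = 0.0133), where 5.01% did. It also passed with array weights (-1.26, adjusted p = 0.00277), where 7.13% did, and with repeated quantile normalization (-0.83, adjusted p = 0.0483), where 2.32% did. No setting that left out 1 array gave a call for Pdk1 (adjusted p of 0.0653 to 0.316).

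The other bright probe sets of Pdk1 moved the same way. The second, 1423747_a_at, was at 7.64, 7.72 and 7.03 in NZO, against 8.84, 9.07 and 9.23 in BKS. In a fit over all 45037 probe sets, where 0.424% passed, it was the one Pdk1 probe set past the threshold (log2 fold change -1.58, adjusted p = 0.0451). The third, 1435836_at, was at 7.15, 7.27 and 6.67 in NZO, against 8.26, 8.90 and 9.37 in BKS (-1.82, adjusted p = 0.0762). The strains did not overlap in any of these 3 probe sets, as in 15.3% of all probe sets. The fourth lay near the bottom of the scale, at 3.95 to 4.14 in NZO and 3.84 to 4.20 in BKS, and showed no difference (-0.01, adjusted p = 0.994). With any 1 array left out the second probe set did not pass (adjusted p of 0.0510 to 0.279), and the third passed without BKS replicate 1 (adjusted p = 0.0430). Of all 19 probe sets 5 passed with the block, where 2.97% of all probe sets did, and 4 among the 2 against 2 arrays, where 2.65% did. Both of these fits were added after seeing the data.

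**Figure D2:**
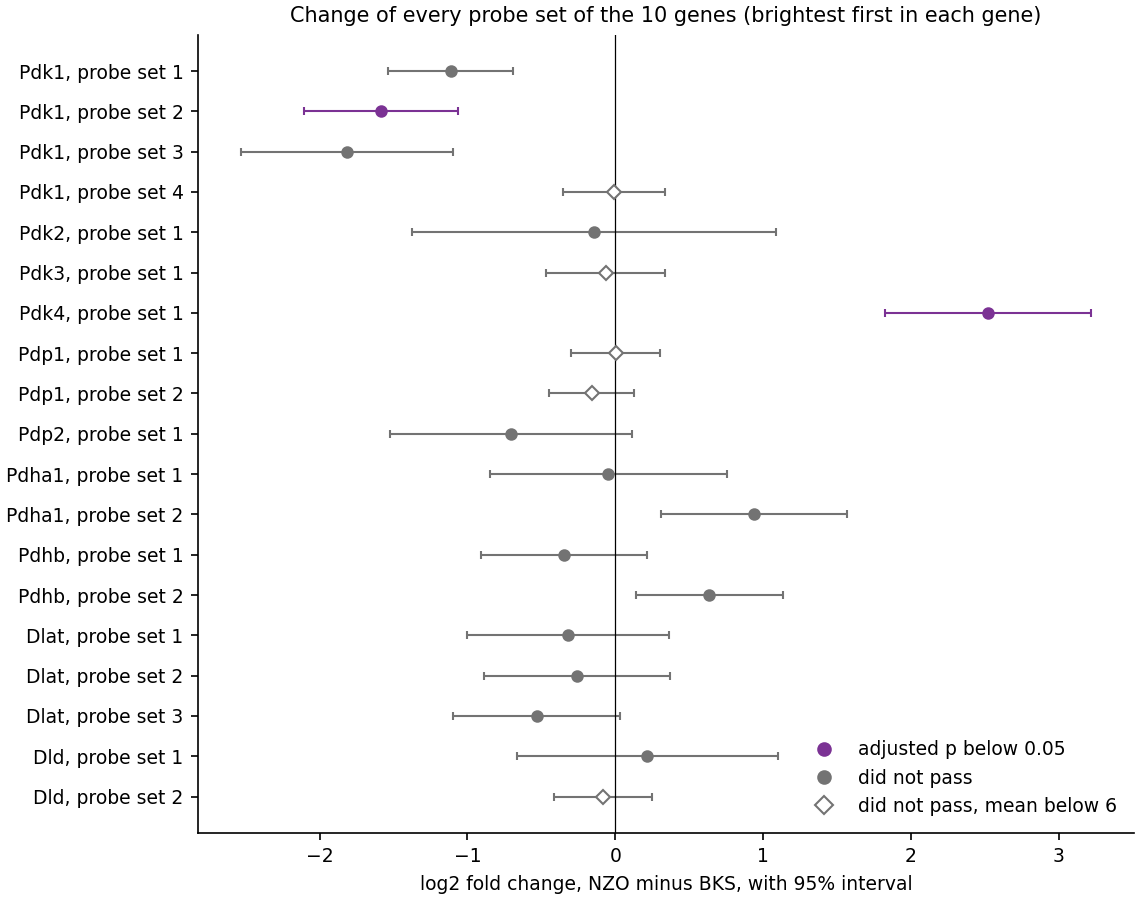
Log2 fold change (NZO minus BKS, horizontal axis) of all 19 probe sets with 95% intervals from the fit over all probe sets; purple points passed at an adjusted p below 0.05, and open diamonds mark probe sets with a mean below 6. Pdk4 stands at 2.52, 3 probe sets of Pdk1 stand between -1.82 and -1.11, and Pdha1 and Pdhb each have probe sets on both sides of 0.

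The sequences before the starts of Pdk4 and Pdk1 are shown because these 2 kinases had the largest changes of the 10 genes, in opposite directions. Each is the 250 bases before the most upstream start in RefSeq (GRCm38.p6), 5′ to 3′ in the gene's direction, with every CG in capitals. Pdk4 lies at chr6:5496279-5496528 on the minus strand and Pdk1 at chr2:71872974-71873223 on the plus strand.
Pdk4: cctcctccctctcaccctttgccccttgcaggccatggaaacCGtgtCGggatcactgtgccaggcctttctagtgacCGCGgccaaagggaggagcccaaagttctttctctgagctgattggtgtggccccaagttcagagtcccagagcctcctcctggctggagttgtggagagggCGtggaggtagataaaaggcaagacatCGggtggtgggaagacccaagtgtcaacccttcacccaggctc
Pdk1: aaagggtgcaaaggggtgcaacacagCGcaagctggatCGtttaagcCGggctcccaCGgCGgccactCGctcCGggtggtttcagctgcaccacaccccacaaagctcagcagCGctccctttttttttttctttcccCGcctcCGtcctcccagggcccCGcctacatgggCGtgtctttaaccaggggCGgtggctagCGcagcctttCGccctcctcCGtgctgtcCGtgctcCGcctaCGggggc
The Pdk4 stretch holds 6 CG and that of Pdk1 holds 19, against a median of 6 over all 32851 stretches in the table, and G and C make up 58.8% and 64.0% of the bases. Neither strand of either stretch holds the forkhead site GTAAACA, found in 3.17% of all stretches, the nuclear receptor half-site AGGTCA, found in 14.0%, or ACGTG, the core of a hypoxia response element, found in 16.6%. A direct repeat of this half-site with a spacer of 1 base was absent too and occurs in 0.0335% of all stretches. Searched on both strands, the GC box GGGCGG occurs once, in Pdk1 from base -62 to -57, and in 32.7% of all stretches. No match says only that these letters are not in this window.

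Pdk2 is the isoform expressed in most tissues and a main kinase of liver. It was at 8.26, 9.82 and 9.75 in NZO, against 8.62, 9.52 and 10.11 in BKS. The arrays titled number 1 were the lowest of both strains, and the strains overlapped. The log2 fold change was -0.14 with a 95% interval of -1.34 to 1.05 (adjusted p = 0.952). Without NZO replicate 1 it was 0.36, and it was 0.11 with repeated quantile normalization and 0.16 with cyclic loess, with no call.

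Pdk3, the isoform best known from testis, lay near the array medians on every array, at 5.04, 5.07 and 5.11 in NZO and 5.47, 5.01 and 4.94 in BKS. Its log2 fold change was -0.07 with a 95% interval of -0.49 to 0.36 (adjusted p = 0.938). At this level a change in Pdk3 may not be visible.

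The 3 other kinases were then set against Pdk4 within each array. Pdk4 minus Pdk1 was 0.20, -0.0038 and 0.14 in NZO, against -2.63, -4.22 and -3.72 in BKS. The zero point of this measure has no meaning, since the probe sets differ, but its shift between strains does. The shift was 3.64 for Pdk1, 2.67 for Pdk2 and 2.59 for Pdk3. No value of one strain reached into the other in any of the 3 measures. Each gave p = 0.1 in a two-sided exact permutation test, the smallest p that 3 against 3 arrays allow, and adjusted p = 0.1 over the 3 tests.

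Pdp1 and Pdp2 encode the phosphatases that reactivate the complex. Pdp2, the isoform prominent in liver and fat, was at 7.18, 8.41 and 8.11 in NZO, against 8.21, 8.95 and 8.65 in BKS. The NZO values were shifted down, but NZO replicate 2 lay above BKS replicate 1. Between strain means the log2 fold change was -0.71 with a 95% interval of -1.51 to 0.10 (adjusted p = 0.503, and 0.0507 with the block). The difference was -1.03 between the arrays titled number 1 and -0.54 among the others. Pdp1, the calcium-dependent isoform, was at 5.06 to 5.23 in NZO and 5.05 to 5.25 in BKS (0.0027, adjusted p = 0.997). Its second probe set was dimmer still, at 3.46 to 3.58 in NZO and 3.60 to 3.76 in BKS, without overlap (-0.16, adjusted p = 0.753).

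Pdha1 and Pdhb encode the alpha and beta chains of the pyruvate dehydrogenase enzyme itself, and the alpha chain carries the sites that the kinases phosphorylate. The brightest probe set of Pdha1 was at 10.05, 11.30 and 11.21 in NZO, against 10.70, 10.92 and 11.08 in BKS. NZO replicates 2 and 3 lay above every BKS array and NZO replicate 1 below. The log2 fold change was -0.05 (95% interval -0.83 to 0.74, adjusted p = 0.977), and 0.28 with repeated quantile normalization and with cyclic loess, neither a call. The other probe set of Pdha1 was at 8.37, 9.16 and 8.88 in NZO, against 7.52, 7.82 and 8.26 in BKS. All NZO values were higher there (0.94, adjusted p = 0.278, and 0.0326 with the block, where 2.97% of all probe sets passed).

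The same split was seen in Pdhb. Its brightest probe set was at 10.61, 11.49 and 11.16 in NZO, against 11.26, 11.57 and 11.46 in BKS (-0.35, adjusted p = 0.658). The dimmer one was at 7.46, 7.92 and 7.16 in NZO, against 6.92, 6.75 and 6.96 in BKS, again with every NZO value higher (0.64, adjusted p = 0.360). The 2 probe sets of Pdha1 differed by 0.985 in log2 fold change and those of Pdhb by 0.982. Among the 3484 genes with at least 2 probe sets of a mean of 6 or more, the median span was 0.490, and 15.4% of genes had a larger span than Pdha1 or Pdhb. A direction for these 2 genes therefore depends on the probe set read.

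Dlat encodes the acetyltransferase core of the complex, to which the kinases bind through its lipoyl domains. Its brightest probe set, of a kind that can cross-hybridise (ending in _x_at), was at 8.53, 9.63 and 9.33 in NZO, against 9.26, 9.62 and 9.57 in BKS. NZO replicate 1 was low and the strains overlapped. The log2 fold change was -0.32 (adjusted p = 0.747), and -0.0024 without NZO replicate 1. A second probe set gave -0.26. A dimmer probe set was at 6.75, 6.95 and 6.08 in NZO, against 6.97, 7.15 and 7.26 in BKS, without overlap (-0.53, adjusted p = 0.534).

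Dld encodes dihydrolipoamide dehydrogenase, the flavoprotein shared with the 2-oxoglutarate and branched-chain complexes. It was at 9.19, 10.49 and 9.75 in NZO, against 9.04, 9.82 and 9.91 in BKS. The strains overlapped, and the log2 fold change was 0.22 (95% interval -0.65 to 1.08, adjusted p = 0.885). It was -0.06 without BKS replicate 1 and -0.12 without NZO replicate 2. A second probe set lay at 4.60 to 4.78 in NZO and 4.65 to 4.95 in BKS (-0.08, adjusted p = 0.908).

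**Figure D3:**
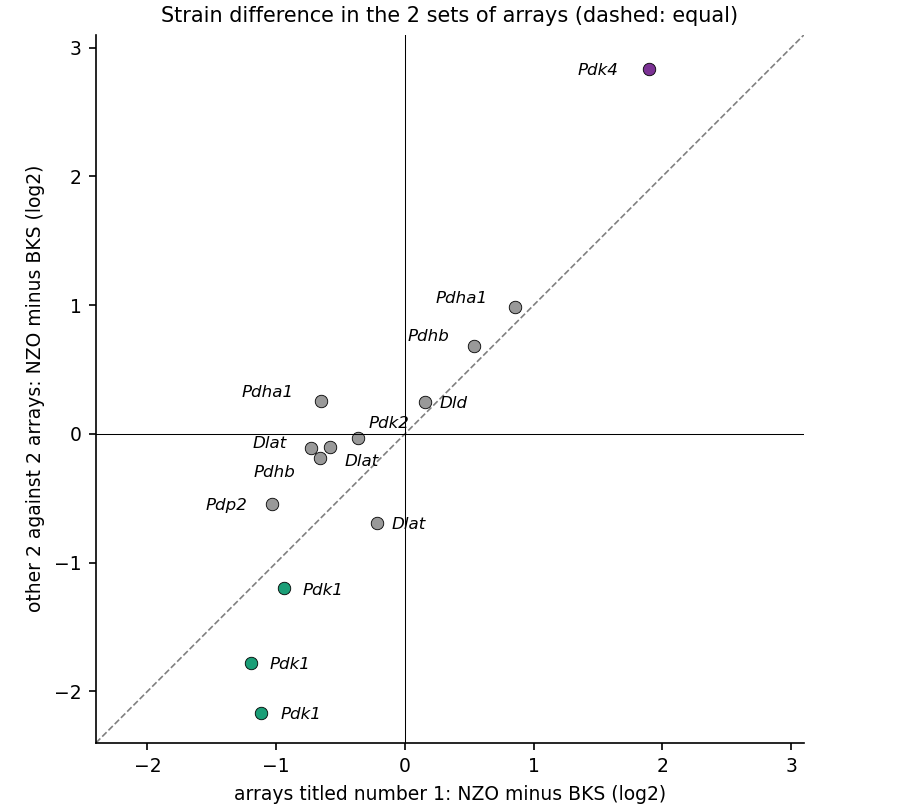
Strain difference (NZO minus BKS, log2) of each probe set with a mean of at least 6, between the 2 arrays titled number 1 (horizontal axis) and among the other 2 against 2 arrays (vertical axis); the dashed line marks equal differences. Pdk4 is at 1.89 and 2.84 and the 3 Pdk1 probe sets lie between -2.17 and -0.94 on both axes, while the brightest probe set of Pdha1 is at -0.65 and 0.26.

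The rest of the complex was measured too. Pdhx, which tethers dihydrolipoamide dehydrogenase to the core, was at 8.68 ± 0.47 in NZO and 8.18 ± 0.53 in BKS (SD, n = 3 each; log2 fold change 0.50, adjusted p = 0.634). Pdpr, the regulatory subunit of the phosphatase, was at 8.65 ± 0.29 in NZO and 8.83 ± 0.30 in BKS (-0.18, adjusted p = 0.826), and its other probe sets gave -0.31, 0.11 and 0.35. Pdha2, the testis form of the alpha chain, stayed at the bottom of the scale, with a mean of 4.03 in NZO and 4.11 in BKS. No gene of this list of 3 passed.

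Genes that supply the cofactors did not pass either. Of 11 measured genes of lipoate and thiamine supply 10 were below 0 (90.9%, against 55.1% of all genes), with a median of -0.19. None passed, over 6 arrays or with the block. Among the 2 against 2 arrays the median was -0.09, and Lias, Slc19a2, Bola3 and Iba57 turned to above 0. Lipt2, a gene of lipoate supply, was at 6.53 ± 0.07 in NZO and 7.05 ± 0.16 in BKS (SD, n = 3 each), without overlap. Its log2 fold change was -0.51 (adjusted p = 0.253). The thiamine transporter Slc19a3 was at 0.18 (adjusted p = 0.766) from a low level. Of 10 measured genes of the sister 2-oxoacid dehydrogenases none passed, with a median of -0.11 that turned to 0.13 among the 2 against 2 arrays. Bckdhb, a subunit of the branched-chain complex, was at 0.52 (adjusted p = 0.574) and passed among the 2 against 2 arrays (0.81, adjusted p = 0.0294). Ppm1k, the phosphatase of that complex, was at -0.61 (adjusted p = 0.574). Its dimmer probe set went the other way, with every NZO value above every BKS value (1.22, adjusted p = 0.261, and 0.0265 among the 2 against 2 arrays), so a direction for Ppm1k depends on the probe set read.

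Among 17 measured genes of pyruvate supply and its other fates none passed, 9 were above 0 and 8 below, and the median was 0.16. The NADP-dependent malic enzyme Me1 was higher on every NZO array than on any BKS array (0.89, adjusted p = 0.158, and 0.0317 with the block). Its second probe set overlapped between the strains (0.34, adjusted p = 0.724). The liver pyruvate kinase Pklr was at 0.45 (adjusted p = 0.619). Its 2 dimmer probe sets gave larger differences, 1.43 (adjusted p = 0.401) and 1.38 (adjusted p = 0.158, and 0.0406 with the block), both without overlap. Of 12 measured genes of acetyl-CoA use none passed, with a median of -0.04 that turned to 0.15 among the 2 against 2 arrays. The 2 genes with the smallest p were the carnitine carrier Slc25a20 at -0.52 (adjusted p = 0.579) and the ATP citrate lyase Acly at 0.52 (adjusted p = 0.599). A second probe set of Slc25a20 gave -0.0037, and the 2 other bright probe sets of Acly gave 1.29 and -0.0036, none past the threshold.

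**Figure D4:**
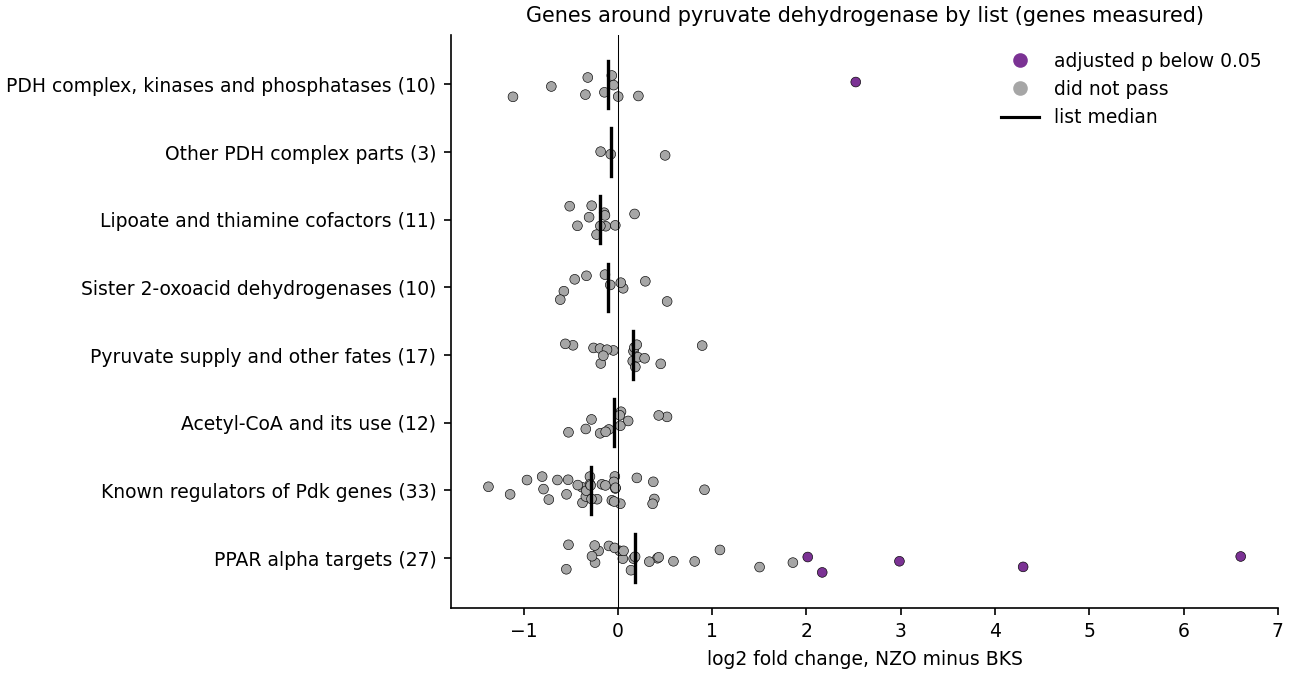
Log2 fold change (NZO minus BKS, horizontal axis) of each measured gene in 8 lists, with the number measured in brackets; purple points passed at an adjusted p below 0.05 and black bars are list medians. Apart from Pdk4, the only points past the threshold are 5 PPAR alpha targets, from 2.01 to 6.61.

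Most known regulators of Pdk genes lay below 0. Of 33 measured genes none passed, 27 were below 0 (81.8%, against 55.1% of all genes) and the median was -0.29. Among the 2 against 2 arrays the median was -0.27, and that of all genes 0.0037. With the block 4 were lower and none higher, where 5.04% of all genes were lower. These were the forkhead factor Foxo1, the coactivator Ppargc1b, Myc and the insulin receptor Insr. Among the 2 against 2 arrays Foxo1, Ppargc1b and Myc were lower, and Insr did not pass (adjusted p = 0.0659).

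Foxo1, a forkhead factor known to switch on Pdk4 when insulin is low, was at 8.08, 8.85 and 7.92 in NZO, against 9.55, 9.82 and 9.60 in BKS. All NZO values were lower (-1.37, adjusted p = 0.0775, and 0.0133 with the block). Of its 3 other probe sets, 1 gave -0.82 (adjusted p = 0.0711) and 2 gave -0.12 and -0.11. Ppargc1b, a coactivator of mitochondrial genes, was at 7.34, 7.79 and 7.28 in NZO, against 7.95, 8.42 and 8.44 in BKS (-0.80, adjusted p = 0.195, and 0.0321 with the block). Chosen after their values were seen, Ppara and Hif1a did not pass. Ppara, the receptor that drives Pdk4 on fasting, was at -0.03 (adjusted p = 0.989). Hif1a, the oxygen-regulated factor behind Pdk1, was at -0.38 (adjusted p = 0.675). NZO replicate 1 was the lowest array for both. Among the 2 against 2 arrays Ppara was at 0.50 (adjusted p = 0.275) and Hif1a at -0.31 (adjusted p = 0.543).

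Pdk4 is itself a known target of PPAR alpha, and the other targets are given beside it. Like the other lists, this one was chosen with earlier results of these data known. Its shares are therefore not independent of these data. Of 27 measured genes 5 passed, each higher in NZO, where 0.324% of all genes were. The median was 0.18, and 19 were above 0 (70.4%, against 44.9% of all genes). With the block 7 were higher, against 1.51% of all genes. Among the 2 against 2 arrays 9 were, against 363 of all 18193 genes, with none lower in either fit. Those that rose were the fatty acid hydroxylase Cyp4a14 (6.61, adjusted p = 0.00304), the fatty acid transporter Cd36 (4.30, adjusted p = 0.0184) and the acyl-CoA thioesterases Acot3, Acot4 and Acot1 (2.99, 2.17 and 2.01). Acot1 was at 7.89, 8.19 and 8.13 in NZO, against 5.91, 6.58 and 5.69 in BKS, without overlap. A dimmer probe set of Acot4 overlapped between the strains (0.81, adjusted p = 0.466). In the fit over all probe sets Acot3 did not pass (adjusted p = 0.0725). Chosen after their values were seen, the mitochondrial oxidation enzymes Acadm, Hadha and Cpt2 in the same list were at 0.14, -0.03 and 0.02 and did not pass. NZO replicate 1 was the lowest array for Acadm and Cpt2. Among the 2 against 2 arrays these were at 0.38 (adjusted p = 0.230) and 0.35 (adjusted p = 0.298).

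The genes whose 6 values ran most like those of Pdk4, among 9330 genes with a mean of at least 6, were Col5a3 (Pearson r = 0.990), Ctse (0.987), Sorl1 (0.987), Marcksl1 (0.986) and A1cf (0.981). Symbols of predicted genes and clones were left out of this search. Col5a3 is a collagen chain, Ctse the protease cathepsin E and Sorl1 a sorting receptor. All 5 were higher on every NZO array. Col5a3 was at 7.05, 7.19 and 7.23 in NZO, against 5.87, 5.35 and 5.72 in BKS (1.51, adjusted p = 0.0177). These correlations run over 6 arrays in 2 strains that differ in these genes, which the points share.

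Pdk4 is abundant in muscle and fat, and markers of other cell types are given for that reason. Fewer cells of a type and less RNA per cell cannot be told apart in whole liver. Of 13 measured striated muscle markers 1 passed, Myom2, at 8.34 ± 0.12 in NZO and 3.85 ± 0.24 in BKS (SD, n = 3 each; adjusted p = 0.000385). The other probe sets of Myom2 gave 3.03 without overlap, and 0.86 and 0.26 with overlap. The mean level of the list, Myom2 included, was 5.13 to 5.26 on the NZO arrays and 4.73 to 4.78 on the BKS arrays. The median log2 fold change of the list was 0.16, against 4.49 for Myom2. In this list 9 genes were above 0 (69.2%, against 44.9% of all genes), and 11 had a mean below 6. The strains did not overlap in 3 of the 13, Myom2 among them, as in 17.0% of all genes. The defining markers Ckm and Acta1 stayed near the array medians, with means of 5.92 and 5.43 in NZO and 6.01 and 5.27 in BKS. None of 8 measured adipocyte markers passed over the 6 arrays, and Fabp4, a fatty acid binding protein of fat cells and macrophages, was higher among the 2 against 2 arrays (1.70, adjusted p = 0.0199). Their mean level was 6.07 to 6.42 in NZO and 6.09 to 6.27 in BKS. Adipoq was at the bottom of the scale, with a mean of 3.86 in NZO and 3.97 in BKS.

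Most endothelial markers lay above 0. Of 12 measured none passed, 11 were above 0 and the median was 0.42, with a mean level of 6.89 to 7.68 in NZO and 6.64 to 6.92 in BKS. With the block Stab2, Pecam1 and Fcgr2b were higher, 3 of 12, against 1.51% of all genes, and the same 3 were higher among the 2 against 2 arrays. None of 12 Kupffer cell and macrophage markers passed over the 6 arrays, and 5 were higher among the 2 against 2 arrays, Vsig4, Lyz2, Cd68, C1qb and C1qc (0.78 to 1.96), where 5.01% of all genes passed in either direction. Their mean level was 7.25 to 8.20 in NZO and 7.21 to 8.02 in BKS. Over the 6 arrays none passed among 12 stellate cell, 6 bile duct, 9 lymphocyte and 4 erythroid markers. Among the 2 against 2 arrays the stellate cell markers Rgs5, Dcn and Lrat were higher (1.33, 1.27 and 0.71). So were the hepatocyte markers Ass1 and Apob (1.54 and 1.02), where 5.01% of all genes passed in either direction. No bile duct, lymphocyte or erythroid marker passed there. Over the 6 arrays 6 stellate cell markers were above 0 and 6 below, and Col3a1 was lower without overlap (-1.17, adjusted p = 0.240). Of 10 measured hepatocyte markers 7 were below 0 over these 6 arrays, with a median of -0.30. Fgb was among them, without overlap (-0.48, adjusted p = 0.538). Whether these shifts or the difference in beta-actin signal have a part in the values of Pdk4 and Pdk1 was not tested.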

How the data were processed

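Log2 values for every probe set were deposited. The submitters' processing notes name RMA and Affymetrix Expression Console. RMA as such quantile-normalizes arrays, and the values carry no detection call. The deposited arrays still differed in level, with medians of 5.08 to 5.22. Genes with a mean of at least 9 had a median of 9.47 on NZO replicate 1, below the other arrays. Quantile normalization repeated over the genes changed the number passing from 135 to 422. Whether the 6 arrays had been normalized together was not tested. Versions are not given in the sources used here. The number of arrays limits the precision.

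Of 45101 probe sets 64 controls were left out of the tests. Probe sets with 1 gene symbol in the platform annotation were named, and symbols were updated through a RefSeq gene table (GRCm38.p6). Where a gene had several probe sets the brightest on average stood for it, leaving 18193 genes. Strains, taken from the strain label, entered a linear model without covariates (R 4.3.3; limma 3.58.1, lmFit then eBayes, two-sided), with Benjamini-Hochberg adjustment over all genes, or over all 45037 probe sets where a probe set is tested. Log2 fold changes are NZO minus BKS. The block takes the arrays titled number 1 as one level and the other 4 as the other. The code was tested on simulated data.

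Members and the 17 gene lists were chosen with earlier results of these data known. Named were all members and, in the 7 pathway lists, up to 4 passing genes or else the 2 with the smallest p. Where a count was 5 or fewer, all passing genes were named. In the marker lists not all genes with the smallest p were named, and some other markers were. The 5 genes with a mean of at least 6 that correlated best with Pdk4 were named too, predicted genes and clones left out. Alternatives changed the arrays included, normalization, filter on dim genes, probe set, variance model and array weights. Promoter sequences are from RefSeq, where 9 of the 10 genes matched. Figures were drawn with matplotlib 3.10.9.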

Additional observations from a re-analysis of the deposited data

How the results depend on the processing

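Pdk4 was higher in NZO under all 14 alternatives (log2 fold change 2.23 to 2.84) and passed in 10 of them, the 4 exceptions leaving out replicate 2 or 3 of either strain. Leaving out 1 array gave 2.23 to 2.84. Pdk1 was lower in all 14 (-1.26 to -0.83) and passed in 4, with the arrays titled number 1 as a block (-1.11), among the 2 against 2 arrays (-1.20), with repeated quantile normalization (-0.83) and with array weights (-1.26). Because the strains did not overlap in Pdk4 or Pdk1, leaving out arrays could not turn the sign of either. The block, the filter on dim genes and the variance model left the log2 fold changes at 2.52 and -1.11. None of the other 8 genes passed in any alternative. The sign changed in 8 of 13 for Pdp1, 7 of 14 for Pdha1, 4 of 14 for Pdk2, 3 of 13 for Pdk3, 2 of 14 for Dld and 1 of 14 for Pdhb. Pdk3 and Pdp1 have no value with the filter at a mean of 6.

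Of the 10 genes, 2 passed with the block, among the 2 against 2 arrays, with repeated quantile normalization and with array weights, and 0 to 1 with 1 array left out. Of their 19 probe sets, 5 passed with the block and 4 among the 2 against 2 arrays, both fits added after seeing the data, and 0 to 2 with 1 array left out, against 2 over the 6 arrays. Over all genes 135 passed, 1192 with the block, 912 among the 2 against 2 arrays, 422 with repeated quantile normalization, 409 with cyclic loess, 281 with trend and robust variance, 1298 with array weights and 27 to 258 with 1 array left out. In the 7 pathway lists together 5 genes passed, 12 with the block, 13 among the 2 against 2 arrays, 9 with repeated quantile normalization, 8 with cyclic loess, 15 with array weights and 1 to 5 with 1 array left out. The causes of these changes were not tested. The shift of Pdk4 against Pdk1, Pdk2 and Pdk3 kept its sign in all 8 alternatives each. Leaving out arrays could not change that sign, because no value of one strain reached into the other. With the mean of all probe sets the shift against Pdk1 was 3.65. Those against Pdk2 and Pdk3 stayed the same, since these genes and Pdk4 have 1 probe set each. No paired analysis was possible because the titles of the strains share only the number 1. Probe sets with a mean near the array medians, Pdk3, Pdp1 and the BKS values of Pdk4 among them, limit what can be seen.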
